A study of Mus musculus with 3 samples.

Results

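The signal brakes are 10 genes whose products limit signalling downstream of the T cell receptor and of G protein-coupled receptors: Rgs1, Rgs2, Rgs10, Rgs16, Spry1, Spry2, Cblb, Dgka, Dgkz and Rnf128. Probes were chosen by the RefSeq accession that the array gives them, and 12 probes mapped to these 10 genes, out of 27509 probes that an accession named. All 10 genes were measured, among 13161 genes in all. Of them, 8 were read by 1 probe, and Rgs2 and Cblb were read by 2 probes each.

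The samples were CD4+ T cells of female C57BL/6 mice aged 8 weeks, taken 2 days after stimulation, and RNA was hybridised to 1-colour Agilent arrays. The genotypes were Dll1-/-, Rbpj-/- and wild type (WT), with 1 array each, all on 1 slide. Notch receptors are engaged by ligands on neighbouring cells, of which Dll1 is one, and the cleaved receptor joins the DNA-binding protein Rbpj to switch on target genes. The sources used here do not say which cells carried each deletion, how the cells were stimulated or how many mice gave each sample. With 1 array per genotype there is no replicate check, no p-value is given, and every difference below compares arrays.

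RGS proteins speed up GTP hydrolysis by G protein alpha subunits and so shorten signals from chemokine and other G protein-coupled receptors. Sprouty proteins restrain the Ras to ERK pathway. Diacylglycerol kinases remove diacylglycerol, the lipid that activates Ras and protein kinase C after receptor engagement. Cblb and Rnf128 (GRAIL) are E3 ubiquitin ligases that raise the threshold of T cell activation and are known from studies of T cell anergy.

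Upstream sequence is shown for Rgs16, Rnf128, Spry2 and Cblb, each of which had a probe at least 1.5-fold apart between arrays, because Rbpj acts on transcription. The sequences are the 250 bases before an annotated start, from RefSeq on GRCm38.p6, written 5′ to 3′ on the gene's strand, and 9 of the 10 genes matched an entry. Rgs1, which also had a probe at least 1.5-fold apart, was the gene without an entry, so none is shown for it. The Rnf128 entry starts inside that gene's span. Capitals mark matches on either strand to TGGGAA, the core recognised by Rbpj, to TGANTCA, an AP-1 motif, or to TGACG, a CREB motif. Rgs16 is at chr1:153740103-153740352 (plus strand), Rnf128 at chrX:139610370-139610619 (plus strand), Spry2 at chr14:105896820-105897069 (minus strand) and Cblb at chr16:52031299-52031548 (plus strand).
Rgs16: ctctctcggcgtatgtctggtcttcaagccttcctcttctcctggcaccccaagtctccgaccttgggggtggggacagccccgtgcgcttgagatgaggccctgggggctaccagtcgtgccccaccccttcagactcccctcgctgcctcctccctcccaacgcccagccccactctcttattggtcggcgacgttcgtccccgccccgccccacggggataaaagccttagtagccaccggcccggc
Rnf128: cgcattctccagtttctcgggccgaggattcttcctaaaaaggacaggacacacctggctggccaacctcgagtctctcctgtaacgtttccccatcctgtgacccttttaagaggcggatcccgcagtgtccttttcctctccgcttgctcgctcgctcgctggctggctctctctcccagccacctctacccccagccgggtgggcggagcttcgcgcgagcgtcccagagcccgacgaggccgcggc
Spry2: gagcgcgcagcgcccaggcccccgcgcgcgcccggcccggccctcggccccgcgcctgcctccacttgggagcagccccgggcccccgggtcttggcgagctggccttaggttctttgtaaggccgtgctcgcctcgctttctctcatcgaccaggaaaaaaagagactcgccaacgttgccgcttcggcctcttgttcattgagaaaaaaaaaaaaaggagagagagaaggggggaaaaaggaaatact
Cblb: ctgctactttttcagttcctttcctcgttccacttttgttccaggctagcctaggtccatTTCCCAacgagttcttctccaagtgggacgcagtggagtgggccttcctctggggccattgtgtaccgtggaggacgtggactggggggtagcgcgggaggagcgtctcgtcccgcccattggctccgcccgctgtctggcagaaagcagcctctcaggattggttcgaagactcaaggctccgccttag
The 9 genes had 13 upstream windows, because Dgka and Dgkz have several annotated starts. The letters TGGGAA occurred in 2 of the 13, for Cblb and Dgka, and in 21.6% of all 32851 windows of this length. TGACG occurred in 3 of the 13, for Dgka and Rgs2, and in 17.8% of all windows. TGANTCA occurred in 0 of the 13 and in 6.75% of all windows. GGAAA, the core recognised by NFAT, occurred in 7 of the 13, for 5 of the 9 genes, and in 55.6% of all windows. It overlaps TGGGAA where an A follows, and it is not set in capitals. A match is a run of letters in this window and not a bound site.

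Each array carried 59305 spots that were not controls, and between 25943 and 27908 of its 55681 probes were well above background. Levels are given as the log2 processed signal less the 75th percentile of its array, so a level of 0 is the signal that 75% of probes do not exceed. Spots of 1 probe printed repeatedly on an array differed by up to 0.33 log2 in 95% of spot pairs, on the array where that value was highest. This covers spot error and not differences between mice or labelling reactions. Each signal brake probe was printed as 1 spot. The scanner's own error was 10 to 14.5% of the signal for the 11 probes well above background. For the dim Rgs2 probe in row 73 it reached 100%. Each of 3 other scalings moves every Rbpj-/- minus WT difference by a fixed amount: -0.17 log2 with array medians, -0.59 with the 8 E1A spike-in probes and -0.76 without the 1 spike-in probe that ran against the other 7. The matching shifts for Dll1-/- minus WT were -0.04, -0.17 and -0.21. All 5 T cell markers were well above background on each array, and none of the 3 dendritic cell markers was on any. The summed scaled signal of the 3 regulatory T cell markers was 7.96 on the Dll1-/- array, 14.4 on the Rbpj-/- array and 6.60 on the WT array. That of the 5 NK cell markers was 6.15, 0.941 and 4.35 in the same order, that of the 5 B cell markers 20.7, 14.2 and 20.8, and that of the 2 neutrophil markers 0.491, 1.97 and 1.11. The sums were 1.21, 0.798 and 1.23 for the 2 CD8 T cell markers and 2.32, 2.60 and 2.29 for the 4 macrophage and monocyte markers. Probes of 1 gene were averaged in log2 before summing, so a dim probe lowers a bright one. The brightest Itgam probe was at 6.64, 7.71 and 7.06 log2, and another at -2.36, -2.84 and -2.42. The brightest was 0.66 higher in Rbpj-/- than in WT cells and 1.08 higher than in Dll1-/- cells. For the 3 endothelial and stromal markers they were 0.53, 0.899 and 0.639, with 3 well above background on the Rbpj-/- array and 1 on each of the others, where Cdh5 and Col1a1 were not. Gzma made up most of the NK cell sum on the Dll1-/- and WT arrays, at levels of 2.42 log2 in Dll1-/-, -1.07 in Rbpj-/- and 2.00 in WT cells, while Klrb1c was highest on the Rbpj-/- array. The B cell gene Cd79a, not well above background on the WT array, was 1.13 log2 higher in Rbpj-/- than in Dll1-/- cells. The NK cell genes Ncr1 and Klre1, the B cell gene Pax5 on the Rbpj-/- and WT arrays and the monocyte gene Cd14 were among those not above background. In such bulk samples, fewer cells of a type and less RNA per cell cannot be told apart. The part of these markers in the differences below was not tested.

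The targeted genes were read with the same arrays. The 2 Rbpj probes gave processed signals of 132 and 316 on the Rbpj-/- array, against 212 and 627 on the WT array, and the gene's log2 difference was -0.50. The single Dll1 probe stayed near background on every array. Neither label is checked by these probes, because their place relative to the deleted sequence is not stated.

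Rgs16 differed most between arrays of the 4 RGS genes. It encodes an RGS protein that T cells induce on activation and that dampens chemokine receptor signals. Its probe gave processed signals of 2843 on the Dll1-/- array, 969 on the Rbpj-/- array and 2287 on the WT array. In scaled levels this was 4.19, 2.78 and 3.69 log2. The Rbpj-/- array was the low one, below both others by more than repeated spots differ. Rgs16 was 1.88-fold lower in Rbpj-/- than in WT cells (log2 difference -0.91) and 2.67-fold lower in Rbpj-/- than in Dll1-/- cells (-1.42). In Dll1-/- cells it was 1.42-fold higher than in WT cells (0.51). Under the 12 other settings that gave a value, its Rbpj-/- minus WT difference ran from -1.67 to -0.77 and stayed beyond 1.5-fold. The probe lies in row 7, near an edge of the array, and spots there differed more often than genes in general. Of the 283 spots around it that were well above background on both arrays, 18.7% were at least 1.5-fold apart between Rbpj-/- and WT, against 11.8% of all genes, with a median difference of -0.06. For Dll1-/- and WT it was 12.5% of 297 spots, against 4.2% of all genes. With the local median of the surrounding spots taken off, Rgs16 was at -0.85 in Rbpj-/- against WT.

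Rgs1, another RGS protein that dampens chemokine responses of lymphocytes, gave processed signals of 3223 in Dll1-/-, 1875 in Rbpj-/- and 3260 in WT cells. Its levels were 4.37, 3.73 and 4.20 log2. The Rbpj-/- array was again the low one, and the Dll1-/- and WT arrays lay within the spread of repeated spots. The log2 difference was -0.47 for Rbpj-/- minus WT and -0.64 for Rbpj-/- minus Dll1-/-, or 1.56-fold. The second of these was -0.43, short of 1.5-fold, after normexp background correction with quantile normalization. The first was -0.64 with array medians and -1.05 with the spike-in probes, both past 1.5-fold.

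Rgs2 and Rgs10 ran the other way. Rgs2, which acts on Gq as well as on Gi signals, gave 1401 in Dll1-/-, 1823 in Rbpj-/- and 1596 in WT cells on the probe in row 292, at levels of 3.17, 3.69 and 3.17 log2. The Rbpj-/- array was the high one, by 0.52 over both others. A second Rgs2 probe, in row 73, stayed near background throughout (14.8, 4.42 and 4.81) and entered no value. Rgs10, a small RGS protein found in many leukocytes, gave 6817 in Dll1-/-, 8459 in Rbpj-/- and 7984 in WT cells. Its levels were 5.45, 5.90 and 5.49 log2, with the Rbpj-/- array 0.41 above WT. As reported, neither reached 1.5-fold. After normexp with quantile normalization Rgs2 was at 0.62 in Rbpj-/- against WT, and both genes were at 0.67 in Rbpj-/- against Dll1-/-, past 1.5-fold. With spike-in scaling the Rbpj-/- minus WT differences of Rgs2 and Rgs10 were -0.07 and -0.17, so their direction depends on the scaling.

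**Figure D1:**
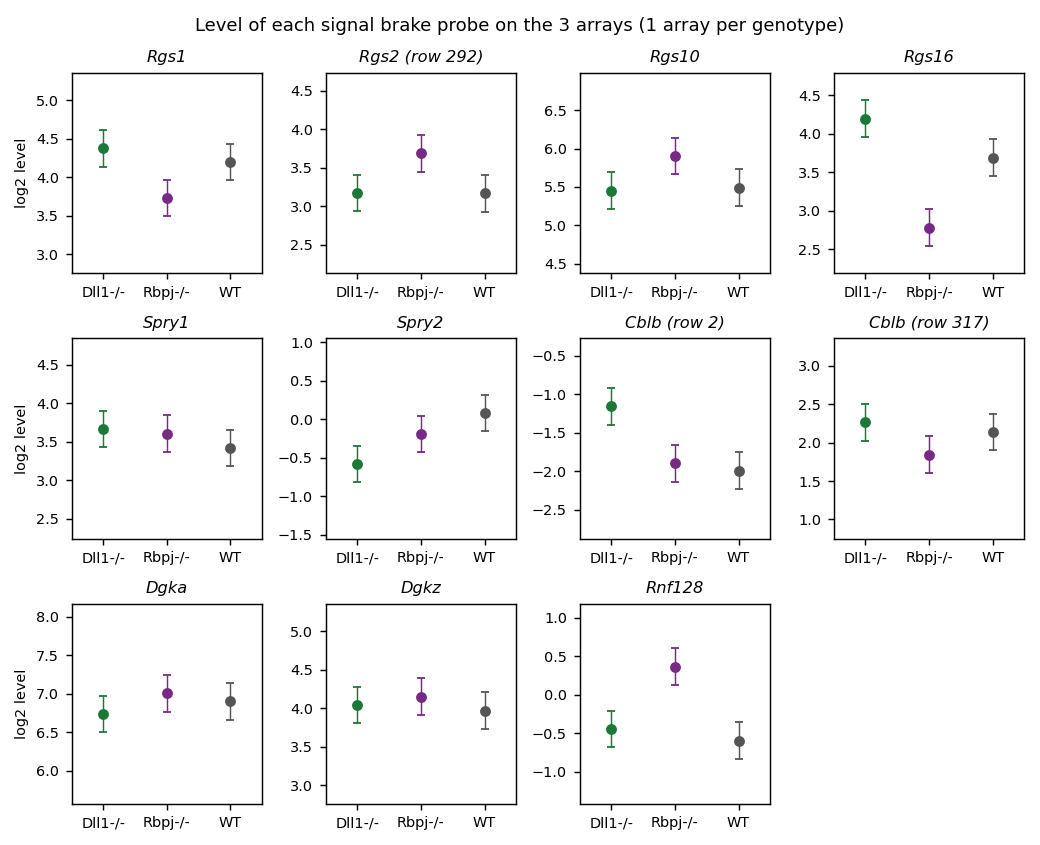
Level of each signal brake probe (y axes, log2 processed signal less the 75th percentile of its array, all panels spanning the same number of log2 units) on the Dll1-/-, Rbpj-/- and WT arrays (x axes), for the 11 probes well above background. Points are single arrays, and bars are ±0.238 log2, the 95th percentile of the SD of repeated spots on the array where it was highest. The Rbpj-/- point lies below both others for Rgs1 and Rgs16 and above both for Rgs2, Rgs10 and Rnf128, by more than 0.33 log2 each.

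Of the Sprouty genes, Spry2 was lower without Dll1. Its processed signals were 104 in Dll1-/-, 124 in Rbpj-/- and 188 in WT cells, and its levels -0.58, -0.19 and 0.08 log2. The Dll1-/- array was the low one, 1.58-fold below WT (log2 difference -0.66), and the Rbpj-/- array lay between, at -0.27 against WT. After normexp background correction Spry2 in Dll1-/- was at -0.43 against WT with either scaling, short of 1.5-fold. With spike-in scaling the Spry2 difference from WT was -0.83 in Dll1-/- and -0.86 in Rbpj-/- cells, so the order of these arrays depends on the scaling. Around the Spry2 probe, in row 299, 3.31% of spots were at least 1.5-fold apart between Dll1-/- and WT. Spry1 gave 1967 in Dll1-/-, 1717 in Rbpj-/- and 1899 in WT cells, at levels of 3.66, 3.60 and 3.42 log2. These 3 levels lay within the spread of repeated spots.

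The 2 Cblb probes gave different sizes. The probe in row 317 read 746 in Dll1-/-, 507 in Rbpj-/- and 780 in WT cells, with levels of 2.26, 1.84 and 2.14 log2. Here the Rbpj-/- array was the low one, 0.29 below WT, and Dll1-/- was 0.13 above WT. The probe in row 2 read 69.7 in Dll1-/-, 38.0 in Rbpj-/- and 44.7 in WT cells, with levels of -1.16, -1.90 and -1.99 log2. On this probe Dll1-/- stood 0.83 above WT and Rbpj-/- 0.09 above WT. The mean of both probes was 0.48 for Dll1-/- minus WT, -0.10 for Rbpj-/- minus WT and -0.58 for Rbpj-/- minus Dll1-/-, the last just short of 1.5-fold. That last value was -0.70 with array medians and -0.999 and -1.13 with the 2 spike-in scalings, all past 1.5-fold. With the same spike-in scalings Rbpj-/- minus WT was -0.69 and -0.86, also past 1.5-fold. The dimmer probe sits at the array's edge, where 14.2% of 212 surrounding spots were at least 1.5-fold apart between Dll1-/- and WT, against 3.97% of 353 around the brighter one. The 0.83 on the dimmer probe is a value of 1 probe, and the other probe read 0.13.

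Rnf128 was the one signal brake that stood at least 1.5-fold higher in Rbpj-/- than in WT cells. Its processed signals were 114 in Dll1-/-, 182 in Rbpj-/- and 117 in WT cells, and its levels -0.45, 0.36 and -0.60 log2. The Rbpj-/- array was the high one, and the Dll1-/- and WT arrays lay within 0.33 log2, the spread of repeated spots. The fold was 1.95 against WT (log2 difference 0.96) and 1.75 against Dll1-/- (0.81). With spike-in scaling the Rbpj-/- minus WT difference was 0.38, and 0.20 without the spike-in probe that ran against the others, both short of 1.5-fold. After normexp correction the Rbpj-/- minus Dll1-/- difference was 0.51, or 0.53 with quantile normalization, also short of 1.5-fold. The probe lies in row 187, where 13% of surrounding spots were at least 1.5-fold apart between Rbpj-/- and WT, close to the share over all genes. On the Rbpj-/- array the regulatory T cell markers Foxp3 and Ikzf2 were also higher than on the WT array, by 1.25 and 1.59 log2, and Ikzf4 was 0.32 higher, within the spread of repeated spots.

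The diacylglycerol kinases differed little. Dgka, an isoform that T cells are known to lower on activation, gave 16531 in Dll1-/-, 18162 in Rbpj-/- and 21189 in WT cells, at levels of 6.73, 7.00 and 6.90 log2. Dgkz, which limits Ras activation at the receptor, gave 2566 in Dll1-/-, 2512 in Rbpj-/- and 2783 in WT cells, at levels of 4.04, 4.15 and 3.97 log2. For both kinases and for Spry1, all 3 differences between arrays were within 0.33 log2. With spike-in scaling Dgka in Rbpj-/- was below WT by more than that (log2 difference -0.48), and so were Dgkz and Spry1 (both -0.40).

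**Figure D2:**
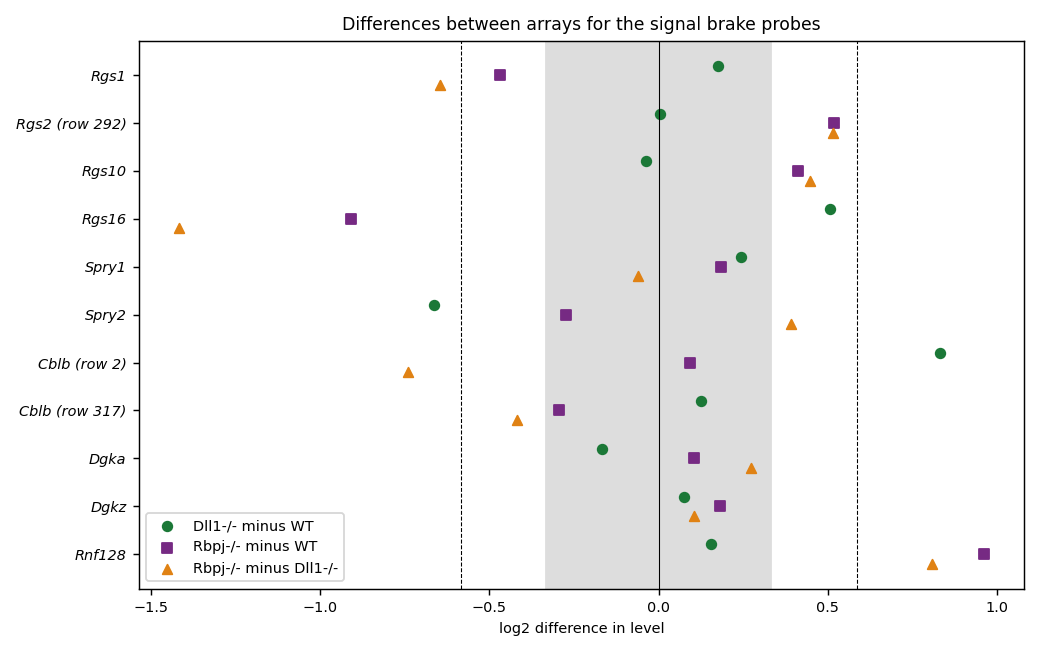
Log2 difference in level between arrays (x axis) for the 11 signal brake probes well above background (y axis), for Dll1-/- minus WT (circles), Rbpj-/- minus WT (squares) and Rbpj-/- minus Dll1-/- (triangles). The grey band is the 95th percentile of the difference between repeated spots (0.333 log2) and dashed lines mark 1.5-fold. The Rgs16 square and triangle lie left of the dashed line at -0.585, and those of Rnf128 right of the one at 0.585.

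The count of signal brakes at least 1.5-fold apart was set beside the share of all genes. In Dll1-/- against WT, 1 of 10 was apart, against 4.2% of 11811 genes in either direction. It was Spry2, which was lower, as were 2.25% of all genes. In Rbpj-/- against WT, 2 of 10 were apart, against 11.8% of 11578 genes. Rnf128 was higher, as were 4.86% of all genes, and Rgs16 was lower, as were 6.91%. In Rbpj-/- against Dll1-/-, 3 of 10 were apart, against 11.6% of 11794 genes. Rnf128 was higher, as were 5.24% of all genes, and Rgs16 and Rgs1 were lower, as were 6.34%. With 10 genes, 1 gene is 10% of the list, so these shares are a description and call nothing particular to the list. The median difference over the 10 genes was 0.11 for Dll1-/- minus WT, 0.14 for Rbpj-/- minus WT and 0.19 for Rbpj-/- minus Dll1-/-, against -0.03, -0.07 and -0.03 over all genes. The Rbpj-/- minus WT median was below 0 with array medians (-0.02) and with spike-in scaling (-0.44), where the all-gene medians were -0.24 and -0.66. The comparisons share arrays, so their values are not independent of each other. At the level of probes, 3 of 11 differed by more than 0.33 log2 between Dll1-/- and WT, 5 of 11 between Rbpj-/- and WT and 8 of 11 between Rbpj-/- and Dll1-/-. The share of all probes past 0.33 log2 was not counted, so these counts also call nothing particular to the list. Over all genes the quartiles were -0.15 and 0.10, -0.25 and 0.13, and -0.20 and 0.15 log2 in the same order of comparisons. The members did not move as a block: the RGS genes held both the lowest Rbpj-/- minus WT difference of the 10, that of Rgs16, and 2 of the higher ones, those of Rgs2 and Rgs10.

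**Figure D3:**
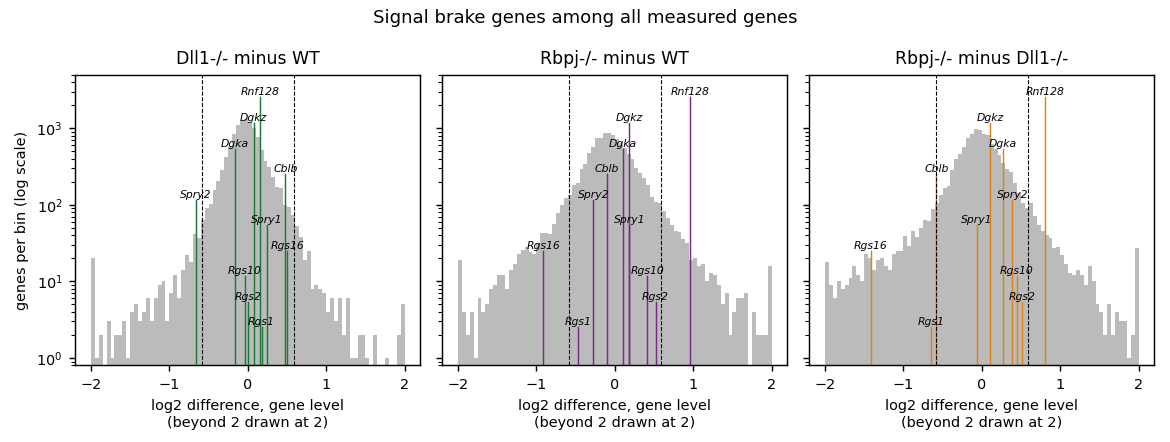
Gene-level log2 differences (x axes) of all genes measured on both arrays of a comparison (grey bars, number of genes per bin on a log y axis), with the 10 signal brakes as coloured lines whose heights only separate the names. Dashed lines mark 1.5-fold. Rgs16 lies in the lower tail and Rnf128 in the upper tail of both comparisons with Rbpj-/-, and Spry2 in the lower tail of Dll1-/- minus WT.

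The pattern most like that of Rgs16 was sought among 11018 genes well above background on all 3 arrays, by the Euclidean distance between centred levels. The nearest were St14, a membrane serine protease, Egr4, an early growth response transcription factor, and Olfr619, an olfactory receptor gene. St14 was at 0.47 for Dll1-/- minus WT and -0.95 for Rbpj-/- minus WT, at a distance of 0.034 log2. Egr4 was at 0.54 and -0.92 with a distance of 0.034, and Olfr619 at 0.55 and -0.86 with a distance of 0.037. The likeness rests on 3 arrays and is given as a description. No other signal brake spanned 1 log2 unit over the 3 arrays.

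Relatives of the signal brakes were read next. Beside their counts, the share of all genes apart was 4.2% in Dll1-/- and 11.8% in Rbpj-/- against WT. It was 11.6% in Rbpj-/- against Dll1-/-. Of 17 other RGS genes, 7 were measured, and their median was -0.03 for Dll1-/- minus WT and 0.19 for Rbpj-/- minus WT. Rgs9, best known from photoreceptors and striatum, was the 1 of 7 at least 1.5-fold apart, at 1.60 log2 in Rbpj-/- against WT, the mean of 3 probes. Its probes in rows 108 and 93 read 1.34 and 2.09 in Rbpj-/- against WT and were well above background on all arrays. Its probe in row 312 was well above background on the Rbpj-/- array only and read 1.37. In Dll1-/- against WT the first 2 probes read -0.10 and 0.58. Of 5 other Sprouty and Spred genes 2 were measured, and neither was 1.5-fold apart: Spred1, an inhibitor of Ras activation, was at 0.44 in Dll1-/- and 0.36 in Rbpj-/- against WT, and Spred2 was at -0.08 and -0.05. Of 8 other diacylglycerol kinase genes 4 were measured, and none was 1.5-fold apart in any comparison. Dgkh had the largest difference, at 0.19 in Dll1-/- and 0.42 in Rbpj-/- against WT.

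Of 10 other ubiquitin ligases and partners that restrain T cells, 8 were measured on both arrays of each comparison with WT. In Dll1-/- against WT, 0 of 8 were 1.5-fold apart, against 4.2% of all genes, and Nedd4 (0.50) and Otub1 (-0.35) differed most. In Rbpj-/- against WT, 0 of 8 were higher and 2 were lower, as were 4.86% and 6.91% of all genes. Dtx1, a Deltex ligase and a known Notch target, was at -2.59, with levels of -1.50 in Rbpj-/- and 1.09 in WT cells. Tnfaip3, the ubiquitin-editing enzyme A20 that restrains NF-kB, was at -0.73. As scaled here, Rnf128 was the only ligase among Cblb, Rnf128 and these 8 that was at least 1.5-fold higher in Rbpj-/- than in WT cells. The filter on dim probes left Cblc, of the same list, out of the 8, since it was not well above background on the WT array. Its levels were -2.23 in Rbpj-/- and -3.92 in WT cells, so it too read higher in Rbpj-/- cells, on a dim probe.

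The pathways on which the brakes act were read against the same all-gene shares. Of 20 genes of the diacylglycerol, Ras and ERK pathway 19 were measured, with medians of -0.09 in Dll1-/- and -0.10 in Rbpj-/- against WT. None was 1.5-fold apart in Dll1-/-, against 4.2% of all genes, and Hras (-0.41) and Map2k1 (-0.40) differed most. In Rbpj-/- against WT, 2 of 19 were lower, as were 6.91% of all genes: Rasgrp1, the diacylglycerol-responsive activator of Ras, at -0.82, and Prkcq, protein kinase C theta, at -0.60. Of 16 G protein and Gi-coupled receptor genes 15 were measured, with medians of -0.09 and 0.04. In Dll1-/- against WT, the chemokine receptor gene Ccr6 was higher (0.62). In Rbpj-/- against WT, 2 of 15 were higher, against 4.86% of all genes: Ccr6 (1.58) and Cxcr5 (0.62). With spike-in scaling Cxcr5 would stand close to WT, since that scaling takes 0.59 off. Of 14 other proximal brakes, phosphatases and adaptors that act at the receptor, 13 were measured and 0 were 1.5-fold apart in either comparison with WT, with medians of 0.06 and 0.02. The largest were Sla2 (-0.35) and Ptpn22 (0.30) in Dll1-/- and Ubash3b (0.48) and Lax1 (0.42) in Rbpj-/-.

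Early genes of receptor signalling, which the brakes limit, were read beside them. In Dll1-/- against WT, 9 of 10 measured genes stood above 0, with a median of 0.42 against -0.03 over all genes. The other was Junb (-0.56, named after its value was seen). Of the 10, 1 was 1.5-fold apart, the nuclear receptor gene Nr4a3 (0.85). In Rbpj-/- against WT, 9 of 10 stood below 0, with a median of -0.23 against -0.07 over all genes. Most of the 10 lay within 0.33 log2, the spread of repeated spots, and 1 was 1.5-fold apart, the cytokine gene Il2 (-1.19). This count depends on the scaling. With array medians 3 of 10 were lower than in WT, as were 1441 of 11578 genes. With the 8 spike-in probes 9 of 10 were lower, as were 6967 of all genes. Against Dll1-/- cells, 5 of 11 were lower in Rbpj-/- cells and 0 were higher, against 6.34% of all genes lower and 5.24% higher. The 5 were Il2 (-1.61), Nr4a3 (-0.90), Egr1 (-0.86), Fos (-0.72) and Cd69 (-0.70, named after its value was seen). The number lower was 9 of 11 with array medians and with the 8 spike-in probes. It was 6 after normexp with the 75th percentile and 3 with quantile normalization. Of all 11794 genes, 1080 were lower with array medians, 3498 with the 8 spike-in probes, and 423 and 379 after the 2 normexp settings.

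**Figure D4:**
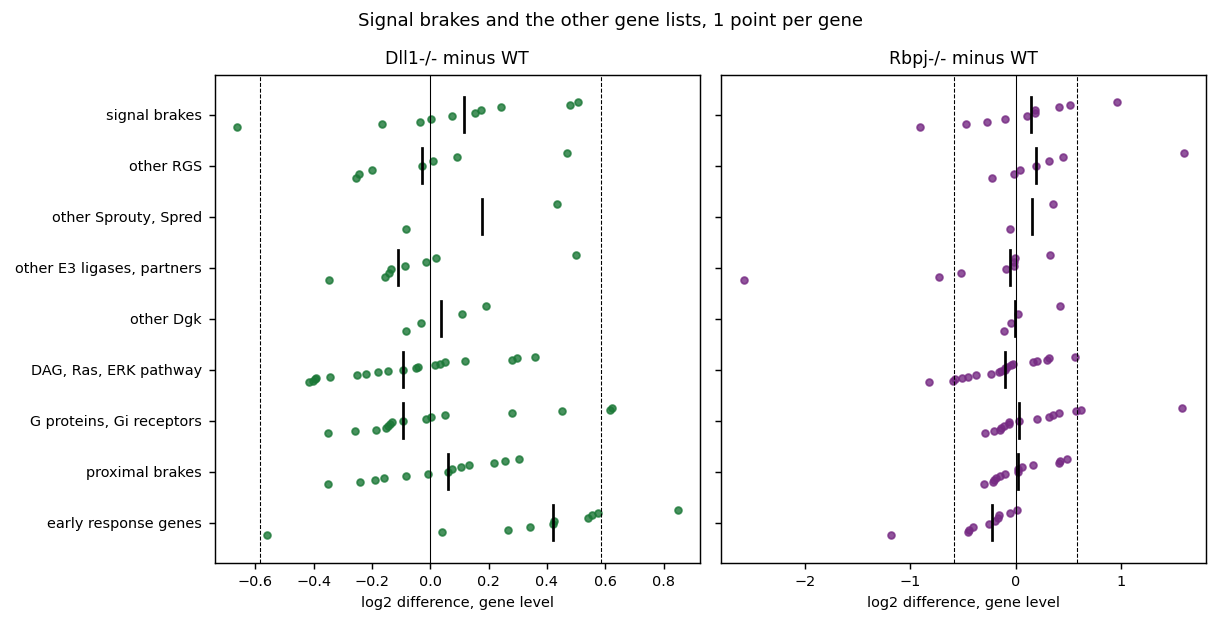
Gene-level log2 differences (x axes) for the signal brakes and 8 other gene lists (y axis), for Dll1-/- minus WT (left) and Rbpj-/- minus WT (right). Each point is 1 gene on 1 array per genotype, black bars are list medians and dashed lines mark 1.5-fold. The early response genes lie mostly right of 0 in Dll1-/- minus WT (median 0.42) and left of 0 in Rbpj-/- minus WT (median -0.23), and the farthest point of the right panel is Dtx1 at -2.59.

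**Figure D5:**
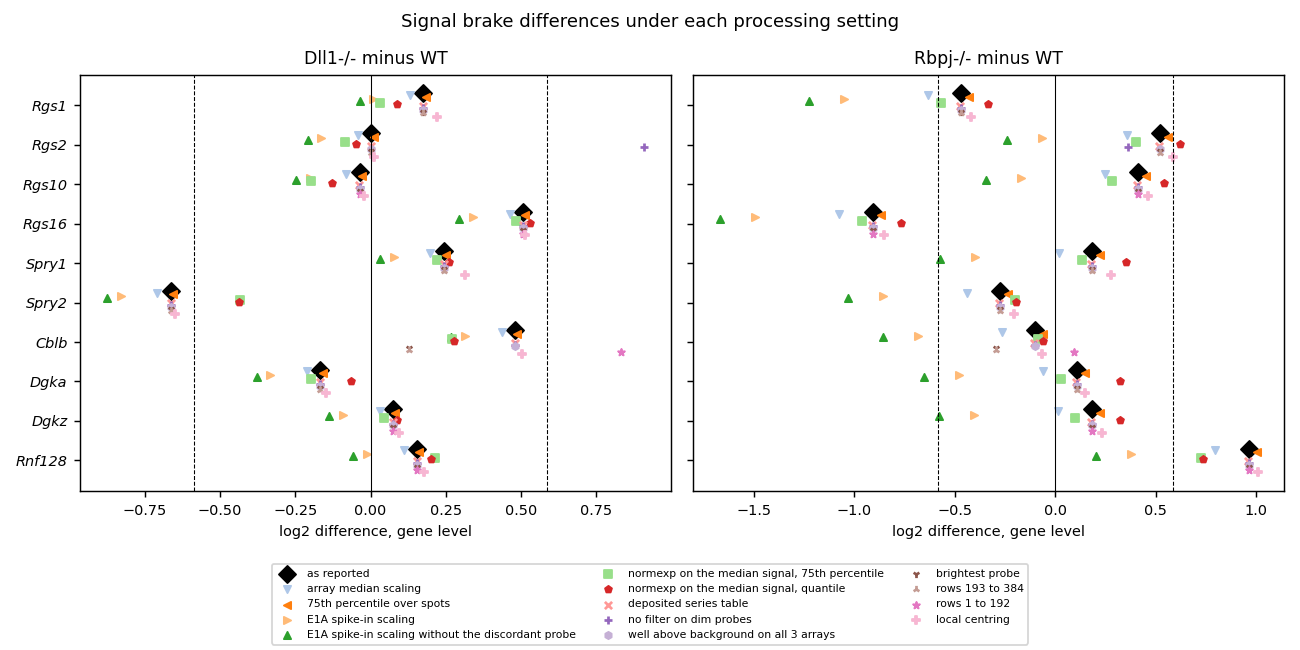
Gene-level log2 differences (x axes) of the 10 signal brakes (y axis) as reported (black diamonds) and under 13 other settings (coloured symbols), for Dll1-/- minus WT (left) and Rbpj-/- minus WT (right). Dashed lines mark 1.5-fold. All Rgs16 symbols in the right panel lie left of -0.585, and the Rnf128 symbols of both spike-in scalings lie left of 0.585, at 0.38 and 0.20.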

How the data were processed

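Each genotype (Dll1-/-, Rbpj-/- and WT) had 1 array, and groups were taken from the titles in the labels. The authors deposited 1 scanner file per array with a linear intensity for each spot, the processed signal. Feature Extraction had subtracted background from it and detrended it across the array, per the file headers (version 10.7.1.1 there, and 10.7 in the labels). A series table of log2 values was also deposited. In at least 99.99% of probes its entry was the log2 processed signal shifted by a fixed amount for the array (-7.28, -7.14 and -7.47 in the order above), within 0.01. Its column medians were -3.40, -3.28 and -3.44, and it is not centred per gene.

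Outlier spots (163, 139 and 143) were left out, 0 spots were saturated, spots of 1 probe were averaged, and the 75th percentile of all non-control probes on the array (7.28, 7.14 and 7.47 log2) was subtracted. Probes were named by unversioned accession through a RefSeq table of GRCm38.p6. The array design used mm9, so no probe coordinates are given. A gene's value averages the probes that were well above background on 1 or more arrays, and it was counted where a probe was so on both arrays compared. A difference of 1.5-fold (0.585 log2) counted as apart.

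The members, the 8 other pathway lists, the 9 marker lists and the 1.5-fold size were chosen with earlier results of these data known. Named genes were all members, Dll1 and Rbpj, and from each list per comparison up to 4 genes at least 1.5-fold apart by size, otherwise the 2 largest. For a member spanning 1 log2 unit, the 3 nearest genes were added, without clone and predicted names. Cell type markers are named where they are given beside a result, and a gene that the rule would name is not reported here. Python 3.11.15 (numpy 2.4.6, pandas 2.3.3) and R 4.3.3 (limma 3.58.1, for normexp with an offset of 50) were used, and the steps were tested on simulated data. Upstream windows were searched on both strands. The number of arrays limits the precision. The 13 alternatives, 5 of them chosen after seeing the data, cover scaling, background correction, probe filter, probe choice and array position.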

Additional observations from a re-analysis of the deposited data

How the results depend on the processing

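With 1 array per genotype no setting supplies a replicate check, and dim probes such as those of Spry2, Rnf128 and the Cblb probe in row 2 depend most on the background correction. Scaling mattered most for Rbpj-/-. With the E1A spike-in probes the median over the signal brakes was -0.44 for Rbpj-/- minus WT and -0.23 for Rbpj-/- minus Dll1-/-, with 4 genes at least 1.5-fold apart from WT. Without the spike-in probe that ran against the others, left out after seeing the data, the medians were -0.62 and -0.36 and the count was 5. After normexp, with the 75th percentile or with quantile normalization, 0 signal brakes were 1.5-fold apart between Dll1-/- and WT. With no filter on dim probes 2 were, since the dim Rgs2 probe then counts. The lower rows of the array, those past its middle row, hold 6 of the genes. There 0 were apart between Rbpj-/- and WT and 1 between Rbpj-/- and Dll1-/-. Rgs16 and Rnf128, apart from WT as reported, have no probe there, so the 0 was set by probe position. The other medians moved by less than 0.238 log2 and the other counts by at most 1.5 times. Among single genes 314 values moved by less than 0.238 log2 and 49 by more. No signal brake difference that was at least 1.5-fold as reported changed sign.

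Over all genes, 1363 of 11578 (11.8%) were at least 1.5-fold apart between Rbpj-/- and WT as reported. Of the same 11578 it was 7072 and 9160 with the 2 spike-in scalings and 573 and 493 after normexp. With no filter it was 3764 of 20886 (18.0%). It was 836 of 6606 (12.7%) in the upper rows and 720 of 6685 (10.8%) in the lower rows. For Dll1-/- and WT it was 496 of 11811 (4.2%) as reported, 838 with the second spike-in scaling and 101 and 112 after normexp. With no filter it was 2489 of 20886 (11.9%), and in the lower rows 222 of 6827 (3.25%). For Rbpj-/- and Dll1-/- it was 1366 as reported, 3678 and 5941 with spike-in scaling, 591 and 594 after normexp, 3969 with no filter, and 807 and 749 in the upper and lower rows. Of those apart between Rbpj-/- and WT, 41.3% were higher as reported, 18.9% with array medians and 1.49% with the spike-in probes. For Dll1-/- and WT the shares were 46.4%, 35.5% and 14.6%.

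The 75th percentile was at first taken over spots in place of probes. That gave the same counts of signal brakes apart, and Rnf128 at 1.00 in Rbpj-/- against WT, which would have put it past the span at which like genes were sought. The files used here hold no mean spot signal, so normexp was run on the median signal. No paired analysis was possible because each genotype has 1 array. The cause of these changes was not tested.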

Other observations

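Between Rbpj-/- and Dll1-/- cells, several genes of the lists read beside the signal brakes were at least 1.5-fold apart. Among G protein-coupled receptors, the chemokine receptor genes Ccr6 (0.96 log2), Cxcr3 (0.70) and Cxcr5 (0.63) were higher in Rbpj-/- cells. Rgs9 was higher (1.13). All 7 measured other RGS genes, Rgs9 among them, stood above 0, with a median of 0.24 against -0.03 over all genes. Most of these 7 lay within the spread of repeated spots. Among ubiquitin ligases, Dtx1 (-2.57) and Tnfaip3 (-0.64) were lower, and Cblc, a relative of Cblb, was higher (0.98). The Cblc probe was dim, at levels of -2.23 in Rbpj-/- and -3.21 in Dll1-/- cells, and not well above background on the WT array. After normexp with either scaling, 0 genes of that list were 1.5-fold higher. Rasgrp1 was lower (-0.60). With the spike-in scaling all of these values would be lower by 0.42, so that Cxcr3, Cxcr5, Ccr6 and Cblc would be short of 1.5-fold and the median of the other RGS genes would be below 0.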
